A study of Mus musculus with 407 samples.

Results

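The transcripts of 9 genes of the contractile filaments were followed through 4 skeletal muscles of ageing mice. They are 6 myosin light chain genes (Myl1, Myl2, Myl3, Myl4, Mylpf and Myl6b) and 3 alpha actin genes (Acta1, Actc1 and Acta2), chosen by name out of 24458 gene symbols in the count tables, and each of the 9 was tested in every comparison. The study sequenced total RNA of the gastrocnemius, tibialis anterior, soleus and diaphragm of C57BL/6J mice, an inbred strain. Both sexes were sampled at 6 months and at the older ages of 12, 18, 21, 24 and 27 months. The libraries, 204 from females and 203 from males, fall into 48 groups of 6 to 10 libraries, one group for each muscle, sex and age. The labels name no engineered allele and no treatment, the mice were bought at their various ages, and the comparison group in every muscle and sex is the mice of 6 months. Tissues of an age group were taken on a single day, so the effect of age and that of the day cannot be told apart.

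Each myosin head of a sarcomere carries an essential and a regulatory light chain, and pulls on thin filaments built of actin. Mylpf encodes the regulatory chain of fast fibres and Myl2 that of slow fibres and of the heart's ventricle. Myl1 encodes the essential chains of fast fibres, Myl3 the slow and ventricular one, Myl6b another essential chain found in slow fibres, and Myl4 the essential chain of the atrium and of embryonic muscle. Acta1 is the actin of adult skeletal muscle, Actc1 that of the heart and of developing skeletal muscle, and Acta2 that of smooth muscle cells around vessels. The soleus is known as a slow muscle in rodents, and the gastrocnemius and tibialis anterior as mostly fast.

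Counts per library summed to 38583802 to 300089909, with a median of 72766895. Values below are CPM, each count taken relative to the library's total and scaled by trimmed means (TMM) over all libraries together. Judged by their correlation with the rest of the group and by their total count, 16 libraries stood apart, 9 of them from the diaphragm. In 2 male diaphragm libraries 6 liver transcripts summed to 32079 CPM (21 months) and 10966 CPM (27 months) of the unscaled counts. In 6 diaphragm libraries the deviation of genes from the muscle's median level correlated with the GC content of the transcript at r between -0.82 and -0.67 across genes, which are not independent, while the median diaphragm library had 0.04. The lowest r in the other 3 muscles was -0.27. At the other end, 3 gastrocnemius libraries had r of 0.82 (male, 12 months, replicate 7), 0.68 (female, 27 months, replicate 0) and 0.57 (male, 27 months, replicate 4). The next highest was 0.47 (male gastrocnemius, 6 months, replicate 6), and the highest r in the other muscles was 0.40. The male library of 12 months (replicate 7) held the highest Acta1 and lowest Actc1 values of the gastrocnemius, 20550 and 20.4 CPM. The female library of 27 months (replicate 0) held the lowest Myl1 and highest Myl6b values of that muscle, 3634 and 6.01 CPM. The 8 fast fibre markers summed to medians of 73240 to 92870 CPM over groups of the gastrocnemius and tibialis anterior and 13390 to 22580 CPM in the soleus and diaphragm, while the 6 slow fibre markers summed to 12620 to 20280 CPM in the soleus and 78 to 135 CPM in the tibialis anterior. None of the fast or slow fibre markers had a median of 0 in any group. In whole muscle, fewer cells of a type and less RNA per cell cannot be told apart.

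The 9 genes lie on 9 chromosomes. On assembly GRCm38 (mm10) Myl1 spans chr1:66924295-66945404 (minus strand), Actc1 chr2:114047282-114053548 (minus), Myl2 chr5:122100951-122113472 (plus) and Mylpf chr7:127208890-127214298 (plus). Acta1 spans chr8:123891769-123894751 (minus), Myl3 chr9:110741861-110769798 (plus), Myl6b chr10:128494157-128498685 (minus), Myl4 chr11:104550663-104595753 (plus) and Acta2 chr19:34241090-34255590 (minus). The annotation has a gene on the opposite strand over part of Myl2, Myl3, Myl4, Acta1 and Actc1, and whether the counting used the strand is not given in the sources used. For Myl1, 16.3% of the 76-base windows of its longest transcript also occur in the pseudogene Mylf-ps, for Acta1 0.365% occur elsewhere (Actb and Gm47692), and for the other 7 members none does.

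The promoters of 3 members are shown because they hold an exact CArG box, the binding site of serum response factor, a regulator of actin genes. Exact means CC, then 6 bases of A or T, then GG. Stretches that depart from this form were not searched or marked, such as ccctatatgg in the windows of Acta2 and Actc1. They run from 250 bases before to 50 after the start of the RefSeq transcript on GRCm38.p6, on the strand of the gene, 5′ to 3′, with the CArG box in capitals. Its first base lies at -73 in Acta1, -47 in Actc1 and -85 in Myl3, counted from the start site.
Acta1 (chr8:123894726-123895025, minus strand): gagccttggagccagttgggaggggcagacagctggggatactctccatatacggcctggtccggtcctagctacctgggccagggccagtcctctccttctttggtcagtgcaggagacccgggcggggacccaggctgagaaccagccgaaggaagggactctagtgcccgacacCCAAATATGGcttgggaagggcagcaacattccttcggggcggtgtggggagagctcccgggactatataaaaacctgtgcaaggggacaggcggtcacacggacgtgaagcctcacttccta
Actc1 (chr2:114052826-114053125, minus strand): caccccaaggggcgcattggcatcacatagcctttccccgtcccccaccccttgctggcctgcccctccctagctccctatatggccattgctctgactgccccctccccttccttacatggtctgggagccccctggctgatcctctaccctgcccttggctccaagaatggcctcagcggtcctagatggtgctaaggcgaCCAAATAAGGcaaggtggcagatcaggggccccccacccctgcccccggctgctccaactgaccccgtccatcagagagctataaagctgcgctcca
Myl3 (chr9:110763428-110763727, plus strand): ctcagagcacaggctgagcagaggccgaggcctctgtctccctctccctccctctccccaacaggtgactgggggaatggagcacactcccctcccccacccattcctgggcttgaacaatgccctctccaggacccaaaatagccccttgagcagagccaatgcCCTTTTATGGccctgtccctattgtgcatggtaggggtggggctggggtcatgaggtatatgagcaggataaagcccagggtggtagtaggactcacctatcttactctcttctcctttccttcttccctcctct

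Of 32851 promoter windows of the same length, 1.63% hold a CArG box on either strand. The MEF2 site, searched in the same way, was in 0.557% of the windows and in no window of a member. The TATAAA motif stood in 13.6% of all windows and in those of Myl1, Actc1, Acta1 and 1 of 2 windows of Myl2. The E-box, CANNTG, was in 72.3% of all windows. A match is a description of the letters in the window.

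Levels across the 4 muscles were compared in a single fit of all libraries, averaged with equal weight over sexes and ages, and a difference was called if the fold change exceeded 1.5 with an adjusted p under 0.05 (edgeR quasi-likelihood test, Benjamini-Hochberg over 17580 genes). Of 54 comparisons of a member between a pair of muscles, 39 were called. Between diaphragm and gastrocnemius 8 of 9 members differed, against 51.4% of all genes. Between diaphragm and soleus 7 differed (all genes 38.5%), and between diaphragm and tibialis anterior 8 (53.3%). Between gastrocnemius and soleus 7 differed (29.2%), between gastrocnemius and tibialis anterior 3 (14.8%), and between soleus and tibialis anterior 6 (31.5%).

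**Figure D1:**
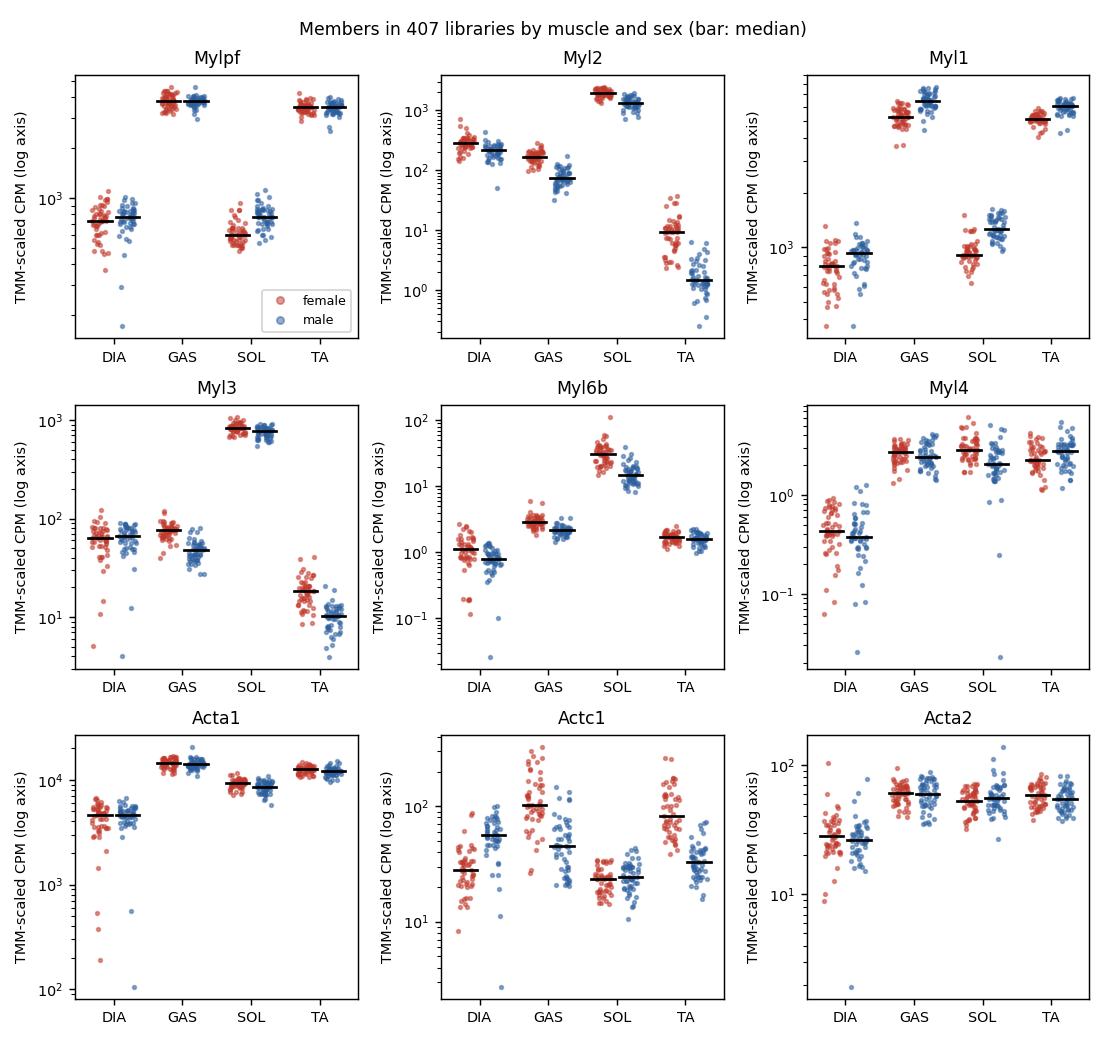
TMM-scaled CPM (log axis) of the 9 members in each library, by muscle (DIA, diaphragm; GAS, gastrocnemius; SOL, soleus; TA, tibialis anterior) and sex, with a bar at the median. Myl2, Myl3 and Myl6b have their highest medians in the soleus, at 1638, 792 and 20.3 CPM, and Myl1 and Mylpf in the gastrocnemius, at 5835 and 3796 CPM.

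The regulatory light chains were opposite in the slow and fast muscles. Myl2 ranged from 710 to 2490 CPM in the soleus (median 1638), from 49.6 to 713 in the diaphragm (median 247), from 31.6 to 279.5 in the gastrocnemius (median 116) and from 0.245 to 36.5 in the tibialis anterior (median 3.26). The soleus and the tibialis anterior did not overlap, and the lowest soleus library lay just under the highest diaphragm library. The log2 difference between soleus and tibialis anterior was 8.53 (SE 0.10, edgeR adjusted p = 6.38e-239), and each of the 6 pairs of muscles differed, so the order was soleus, diaphragm, gastrocnemius and tibialis anterior. Mylpf ran the other way, with medians of 3796 CPM in the gastrocnemius (2978 to 4639), 3480 in the tibialis anterior (2527 to 4220), 757 in the diaphragm (170 to 1107) and 686 in the soleus (485 to 1109). Its log2 difference between gastrocnemius and soleus was 2.45 (SE 0.03). Gastrocnemius and tibialis anterior differed by 0.13 (95% confidence interval 0.07 to 0.19), and diaphragm and soleus by 0.10 (0.04 to 0.16), both under the fold limit. Per kilobase of transcript, Myl2 made up a median of 79.4% of the sum of Myl2 and Mylpf in female soleus and 0.05% in male tibialis anterior.

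Between the soleus and the fast limb muscles, the essential light chains followed the same division, with 1 exception. The place of the diaphragm varied from chain to chain. Myl1 had medians of 5835 CPM in the gastrocnemius (3634 to 7743), 5461 in the tibialis anterior (4050 to 6729), 1088 in the soleus (637 to 1619) and 843 in the diaphragm (365 to 1366). No library of the gastrocnemius or tibialis anterior overlapped with one of the soleus or diaphragm. Its log2 difference between gastrocnemius and diaphragm was 2.81 in size (diaphragm lower, SE 0.03). Myl3 had medians of 792 CPM in the soleus (542 to 1081), 12.8 in the tibialis anterior (3.97 to 41.0), 61.4 in the gastrocnemius (27.2 to 118) and 64.9 in the diaphragm (4.01 to 122). The soleus lay above every library of the other muscles, by a log2 difference of 5.84 from the tibialis anterior (SE 0.07). Diaphragm and gastrocnemius differed in Myl3 by 0.08 (95% confidence interval -0.03 to 0.19, adjusted p = 0.166).

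Myl6b was also highest in the soleus. It had medians of 20.3 CPM in the soleus (8.18 to 114), 2.44 in the gastrocnemius (1.46 to 6.01), 1.64 in the tibialis anterior (0.96 to 2.47) and 0.94 in the diaphragm (0.026 to 2.65). The soleus exceeded the gastrocnemius by 3.13 on the log2 scale (SE 0.06) and the diaphragm by 4.50 (SE 0.07). The gastrocnemius and tibialis anterior differed by 0.60 (SE 0.07), just past the fold limit. Myl4 was the exception, with medians of 2.52, 2.57 and 2.59 CPM in gastrocnemius, soleus and tibialis anterior and 0.41 CPM in the diaphragm (0.026 to 1.27). The 3 limb muscles differed from each other by -0.01 to 0.00 on the log2 scale, with 95% confidence intervals within -0.13 and 0.11. The diaphragm was lower than the tibialis anterior by a log2 difference of -2.57 (SE 0.08).

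Acta1 was the most abundant member per kilobase in every muscle, at medians of 9854 CPM per kilobase in the gastrocnemius, 8465 in the tibialis anterior, 6227 in the soleus and 3192 in the diaphragm. In CPM it ranged from 10920 to 20550 in the gastrocnemius, and from 9481 to 15190 in the tibialis anterior, and the soleus held 5697 to 11510 and the diaphragm 106 to 6719. The diaphragm was lower than the gastrocnemius by -1.70 on the log2 scale (SE 0.06). Actc1 had medians of 75.2 CPM in the gastrocnemius (20.4 to 327), 50.6 in the tibialis anterior (15.7 to 263), 41.3 in the diaphragm (2.73 to 99.9) and 23.8 in the soleus (10.6 to 43.7). The gastrocnemius exceeded the soleus by 1.59 on the log2 scale (SE 0.07). The order of muscles for Actc1 depended on sex. Male medians were 56.6 CPM (diaphragm), 45.0 (gastrocnemius), 32.6 (tibialis anterior) and 24.6 (soleus). Female medians were 102 CPM (gastrocnemius), 82.5 (tibialis anterior), 27.9 (diaphragm) and 23.3 (soleus). Per kilobase, the Actc1 share of the sum with Acta1 had female medians of 0.722% (gastrocnemius), 0.617% (tibialis anterior), 0.616% (diaphragm) and 0.245% (soleus). Male medians of this share were 0.331%, 0.277%, 1.18% and 0.299%, with muscles listed as for females. Acta2 had medians of 60.1, 54.8 and 55.8 CPM in gastrocnemius, soleus and tibialis anterior and 26.9 CPM in the diaphragm (1.94 to 104), lower there than in the gastrocnemius by -1.06 (SE 0.06). The 8 smooth muscle markers summed to group medians of 177 to 250 CPM in the diaphragm and 546 to 885 CPM in the limb muscles, and 6 of the 8 were lower in the diaphragm than in the gastrocnemius; their part in the Acta2 difference was not tested.

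Some differences between the diaphragm and the other muscles depended on the scaling. With library totals in place of TMM, the median of all genes moved from 0.13 to 0.77 (log2, diaphragm minus gastrocnemius) and from 0.17 to 1.00 (diaphragm minus tibialis anterior). The share of called genes that were higher in the diaphragm then moved from 62.5% to 88.9% and from 66.8% to 94.4%. In the other pairs that share moved from 70.9% to 89.1% (diaphragm minus soleus), 54.3% to 30.6% (gastrocnemius minus soleus) and 61.8% to 88.8% (soleus minus tibialis anterior). On that scale Acta2 in the diaphragm was lower than in gastrocnemius, soleus and tibialis anterior by -0.41, -0.53 and -0.12, no longer past the fold limit, and Myl6b was higher than in the tibialis anterior by 0.06. In the 6 diaphragm libraries with r below -0.5, Acta1 ranged from 106 to 1449 CPM (median 453), while in the other 92 it ranged from 2102 to 6719 (median 4721). Myl3 was at 4.01 to 29.1 CPM in those 6 and 31.1 to 122 in the rest, and Myl6b at 0.026 to 0.199 against 0.187 to 2.65. Myl1 was not low in them, at 930 to 1366 CPM against 365 to 1187. Acta1 has the highest GC content of the members (57.0%) and Myl1 the lowest (48.9%). The members between them did not all follow the order of GC content. Acta2 (49.6%) had a median of 11.38 CPM in those 6 libraries and 27.47 in the rest. Actc1 (52.3%) had medians of 42.64 and 41.31 CPM, and Mylpf (52.6%) of 639.4 and 760.8, while Myl3 (51.5%) was low as given above. Myl2 (50.3%) had a higher median in those 6, and Myl4 (51.6%) and Myl6b (53.6%) a lower one. The part of GC content in these values was not tested. With GC correlation as a further term, the Acta1 difference between diaphragm and gastrocnemius was -1.77.

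**Figure D2:**
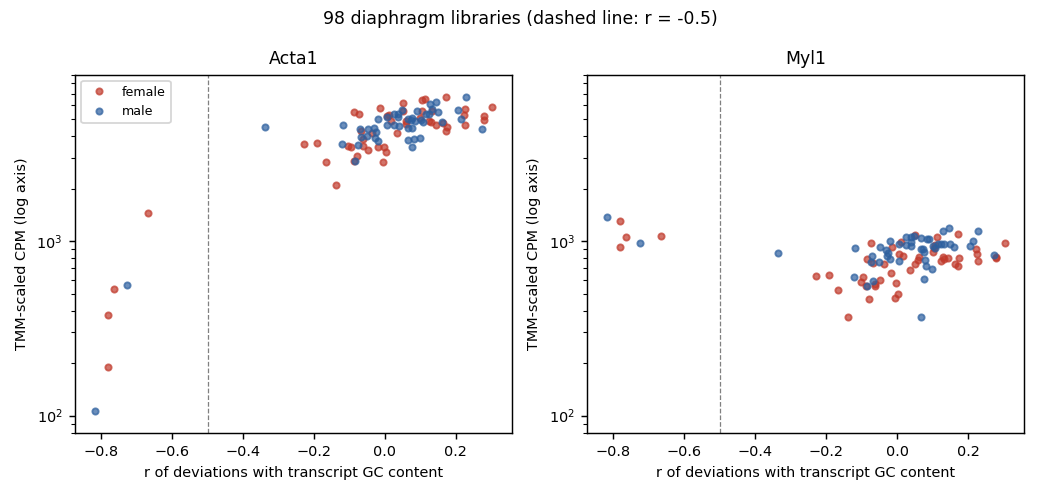
Acta1 (left) and Myl1 (right), TMM-scaled CPM on a log axis, in 98 diaphragm libraries, against the correlation of each library's deviations from the muscle median with transcript GC content. The 6 libraries left of the dashed line at -0.5 hold the lowest Acta1 values, 106 to 1449 CPM, and Myl1 values of 930 to 1366 CPM.

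Female and male muscles were compared within each muscle, averaged over ages, with the same thresholds. In 36 comparisons 8 were called. In the gastrocnemius 3 of 9 members differed (8.17% of all genes), in the tibialis anterior 3 (5.27%), in the soleus 1 (3.97%) and in the diaphragm 1 (5.18%). With library totals in place of TMM the share of called diaphragm genes that were higher in females moved from 60.3% to 77.4%. The slow light chains Myl2 and Myl3 were higher in female gastrocnemius and tibialis anterior, and Actc1 differed in opposite directions in the diaphragm and in these fast muscles.

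Myl2 group medians in the gastrocnemius were 130 to 196 CPM in females and 56.5 to 86.4 CPM in males, higher in females at each of 6 ages. The log2 difference, female minus male, was 1.16 (SE 0.07, edgeR adjusted p = 2.94e-27). In the tibialis anterior the medians were 7.33 to 11.1 CPM in females and 1.23 to 3.00 CPM in males, a difference of 2.44 (SE 0.19). In the soleus the medians were 1785 to 2185 and 1241 to 1476 CPM, and the difference of 0.55 (SE 0.05) stayed under the fold limit. Myl3 differed by 0.67 (SE 0.06) in the gastrocnemius, where medians were 69.2 to 80.1 CPM in females and 39.5 to 50.9 in males, and by 0.87 (SE 0.08) in the tibialis anterior, where they were 12.8 to 25.3 and 8.12 to 11.9. Libraries of the sexes overlapped for Myl3 in the gastrocnemius at every age. Myl6b differed by 0.99 (SE 0.09) in the soleus, with medians of 20.3 to 41.9 CPM in females and 11.4 to 18.8 in males. In the gastrocnemius its difference was 0.46 (SE 0.05). The slow fibre markers moved alongside, with 6 of 6 higher in female gastrocnemius, 4 of 6 in soleus and tibialis anterior and 0 of 6 in the diaphragm. Their part in these differences was not tested.

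The fast essential chain Myl1 was lower in females by less than the fold limit, at -0.27 (SE 0.03) in the gastrocnemius, -0.46 (SE 0.04) in the soleus, -0.22 (SE 0.02) in the tibialis anterior and -0.21 (SE 0.07) in the diaphragm, with edgeR adjusted p values of 8.59e-17, 5.03e-18, 1.81e-15 and 0.0206. Its female group median was higher than the male one at 3 of 6 ages in the diaphragm and at 0 of 6 in each other muscle. Mylpf differed in the soleus by -0.33 (SE 0.04), and by at most 0.05 in size in the other muscles. Actc1 was higher in females by 1.32 (SE 0.11) in the gastrocnemius and 1.44 (SE 0.10) in the tibialis anterior, and lower by -0.95 (SE 0.13) in the diaphragm. Its female group medians in the diaphragm were 21.4 to 37.0 CPM and the male ones 39.8 to 79.3 CPM, with the male median above the female one at each of 6 ages. In the soleus the difference was -0.14 (95% confidence interval -0.30 to 0.01). Acta1 and Acta2 differed by at most 0.16 in size in any muscle, and neither passed both thresholds in any.

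For age, each older group was first compared with 6 months within a muscle and sex, and a member counted if it passed a fold change of 1.5 and an adjusted p of 0.05 in any older group. In females this held for 1 of 9 members in the gastrocnemius (9.44% of all genes), 1 in the tibialis anterior (9.23%), 2 in the soleus (8.52%) and 0 in the diaphragm (2.95%). In males it held for 3 in the gastrocnemius (8.06%), 1 in the tibialis anterior (8.53%), 0 in the soleus (2.85%) and 1 in the diaphragm (11.0%). The genes were Actc1, Myl6b, Myl4, Myl3, Myl2 and Acta2, and none was Myl1, Mylpf or Acta1. Both counts of 0 are by edgeR, with limma-voom and DESeq2 also at 0, and in each of these 2 settings 3 members had an unadjusted p below 0.05 at some age.

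Actc1 in the gastrocnemius fell early and stood higher again in the oldest mice. In females it was 99.9 to 301 CPM at 6 months (median 226), 82.4 to 165 at 12 months (median 110), 41.6 to 102 at 18 months (median 61.6), 26.3 to 144 at 21 months (median 82.6), 28.1 to 234 at 24 months (median 93.1) and 99.4 to 327 at 27 months (median 154). All but 1 library of 6 months lay above the whole range of 18 months. The log2 change from 6 months was -1.73 at 18 months (SE 0.28, edgeR adjusted p = 2.13e-05), -1.47 at 21 months and -1.10 at 24 months, and at 27 months it was -0.40 (95% confidence interval -0.91 to 0.12). In males the medians were 64.7, 22.6, 29.2, 40.5, 44.8 and 95.2 CPM at the 6 ages, with -1.25 (SE 0.26) at 12 months and -0.92 (SE 0.25) at 18 months. At 12 months the male libraries (20.4 to 44.1 CPM) lay below those of 6 months (49.7 to 80.6). A line over all ages was not called in either sex, at -0.47 in females (95% confidence interval -1.01 to 0.06) and 0.54 in males (0.00 to 1.08). Tibialis anterior medians went from 108 CPM at 6 months to 60.3 at 12 months in females and from 40.7 to 25.8 in males. No change of Actc1 from 6 months was called in that muscle. Without the libraries of 6 months the slope per 21 months was 2.37 in male gastrocnemius (edgeR adjusted p = 3.53e-06). It was 1.24 in male tibialis anterior and 1.78 in female tibialis anterior. In the latter, medians went from 59.5 CPM at 18 months to 120 at 27 months. In the gastrocnemius the 11 markers of embryonic or denervated fibres summed to medians of 105 CPM at 6 months and 208 at 27 months in females, and 148 and 241 in males. In the same muscle 9 of the 11 rose along the line in either sex; their part in the Actc1 values was not tested.

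**Figure D3:**
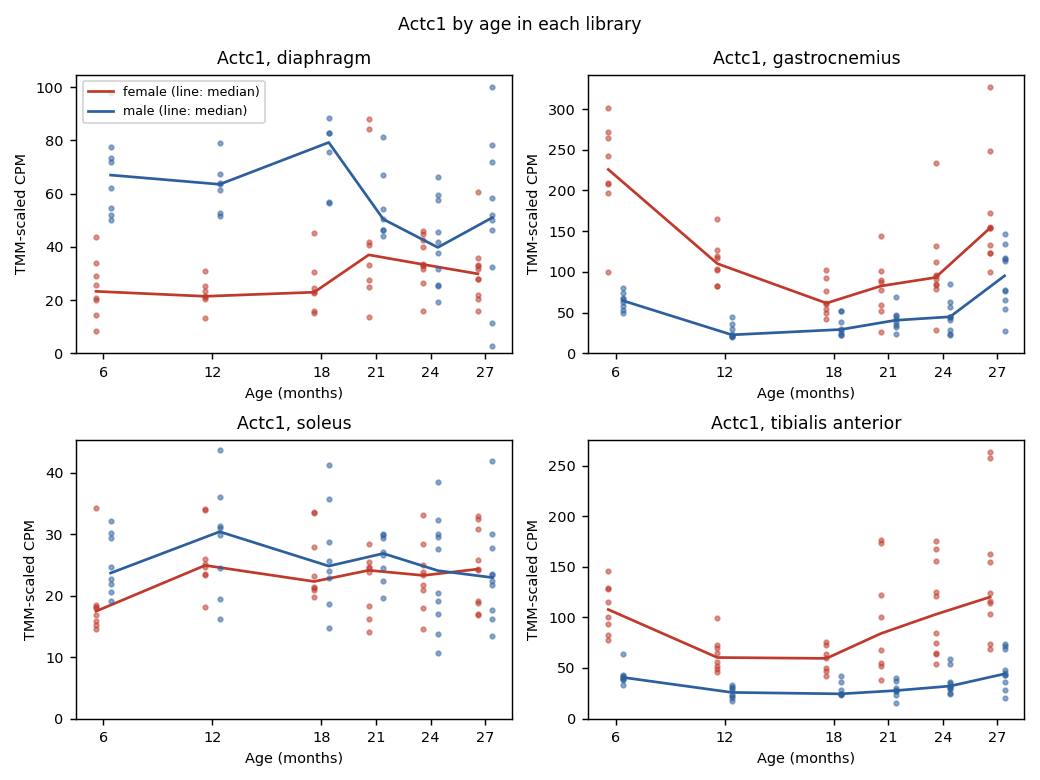
Actc1 (TMM-scaled CPM) in each library against age in months, by muscle and sex, with lines through the group medians. In the gastrocnemius the female median goes from 226 CPM at 6 months to 61.6 at 18 months and 154 at 27 months, and the soleus stays between 17.5 and 30.4 CPM.

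Myl6b rose in female soleus. It was at 16.3 to 27.5 CPM at 6 months (median 20.3), 15.2 to 44.5 at 12 months (median 22.0), 21.2 to 39.1 at 18 months (median 30.3), 27.1 to 40.3 at 21 months (median 34.3), 24.8 to 52.0 at 24 months (median 36.3) and 24.1 to 114 at 27 months (median 41.9). The groups of 6 and 21 months overlapped at their edges, between 27.1 and 27.5 CPM. The log2 change was 0.66 at 21 months, 0.78 at 24 months and 1.15 at 27 months (SE 0.20, edgeR adjusted p = 3.65e-05), and 0.90 at the least when any 1 library of 6 or 27 months was left out. With library totals in place of TMM the changes at 21 and 24 months were 0.44 and 0.56 and no longer passed the fold limit. The slope over all ages was 1.12 (95% confidence interval 0.79 to 1.45) in females and 0.47 (0.09 to 0.85, adjusted p = 0.143) in males, whose medians went from 11.4 to 15.1 CPM. In female gastrocnemius the Myl6b slope was 0.53 (SE 0.11), with medians of 2.48 CPM at 6 and 3.29 at 27 months.

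Myl4, the embryonic and atrial chain, was low throughout and rose in several muscles. In male tibialis anterior it was at 1.18 to 2.39 CPM at 6 months (median 1.74) and 2.40 to 4.39 at 18 months (median 3.22), which did not overlap, and the medians at 21, 24 and 27 months were 3.38, 2.92 and 2.91. The change from 6 months was 0.84, 0.96, 0.80 and 0.76 at 18, 21, 24 and 27 months (SE 0.17 to 0.18). In male gastrocnemius it went from 1.41 to 2.49 CPM (median 1.78) to 2.15 to 3.75 at 24 months (median 3.18), a change of 0.70 (SE 0.15), and 0.68 at 27 months. In female soleus the change at 27 months was 0.63 (SE 0.18), from a median of 2.16 to 2.99 CPM. That call was lost without any of 5 of the 18 libraries of the 2 ages (6 months replicates 6 and 7, 27 months replicates 0, 7 and 9), where the change was 0.52 to 0.58, and also with library totals (0.44, adjusted p = 0.0614), by limma-voom and with the replicate number as a block (0.56). Slopes of Myl4 were called in female and male diaphragm (1.01 and 0.98), female soleus (0.58), male gastrocnemius (0.75) and male tibialis anterior (0.82). In the diaphragm the medians at 6 and 27 months were 0.31 and 0.67 CPM in females and 0.35 and 0.45 in males. The diaphragm slopes were no longer called with library totals (adjusted p = 0.0945 and 0.0743), limma-voom (0.159 and 0.06) or the replicate number as a block (0.0786 and 0.221), and the male one not without the libraries that stood apart (0.119).

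**Figure D4:**
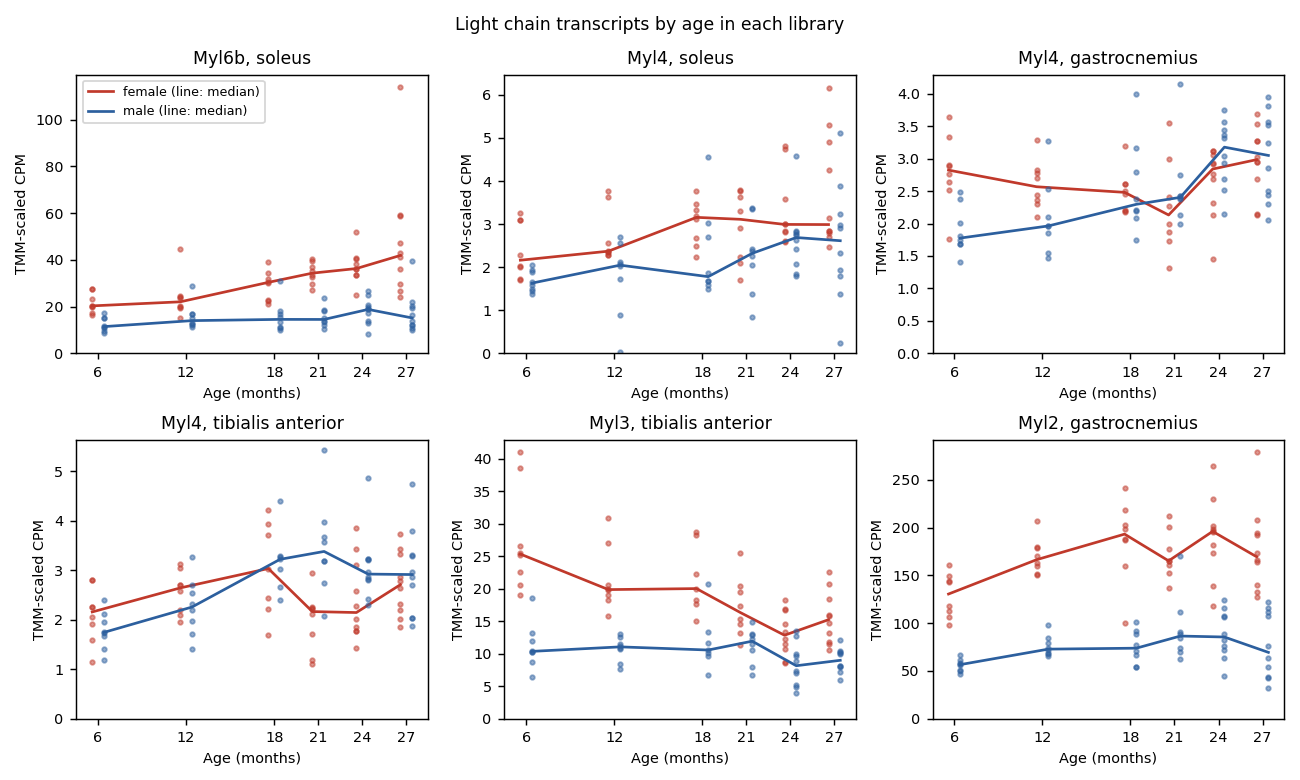
TMM-scaled CPM of Myl6b and Myl4 in the soleus, Myl4 in the gastrocnemius and tibialis anterior, Myl3 in the tibialis anterior and Myl2 in the gastrocnemius, each point a library, by age in months and sex, with lines through the group medians. Myl6b in female soleus goes from a median of 20.3 to 41.9 CPM, with 1 library at 114, and Myl3 in female tibialis anterior from 25.3 to 15.2 CPM.

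Myl3 fell in female tibialis anterior. It was at 18.9 to 41.0 CPM at 6 months (median 25.3) and 8.56 to 18.3 CPM at 24 months (median 12.8), which did not overlap, and at 10.5 to 22.6 at 27 months (median 15.2). The change was -0.67 at 21 months, -1.06 at 24 months (SE 0.17, edgeR adjusted p = 9.02e-06) and -0.80 at 27 months. The slope was -0.91 (SE 0.15) in females and -0.35 (95% confidence interval -0.70 to 0.00) in males, whose medians were 10.3 CPM at 6 and 8.96 at 27 months. Myl2, the other slow chain, had a slope of 0.55 (-0.23 to 1.32) in the same female muscle. Of the 6 slow fibre markers there, 3 rose and none fell, led by Tnni1 and Tnnt1, the slow troponins I and T, at 1.34 and 1.14. Of 41 other sarcomere genes, 8 rose and 4 fell, the latter led by Myh2, the heavy chain of type 2A fibres (-1.45), and Myoz2, a Z-disc protein of slow fibres (-1.15). The liver transcripts summed to medians of 8.68, 3.22, 8.86, 12.3, 2.615 and 66.9 CPM at the 6 ages in this muscle, lowest at 24 months. Along the line 6 of 6 rose, and their part was not tested.

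Myl2 rose in the gastrocnemius of males. It was at 46.7 to 66.5 CPM at 6 months (median 56.5) and 62.8 to 170 at 21 months (median 86.4), with an overlap between 62.8 and 66.5 CPM. The change was 0.76 (SE 0.21) at 21 months and 0.66 (SE 0.20) at 24 months, while at 27 months, with 31.6 to 122 CPM, it was 0.47 (95% confidence interval 0.07 to 0.87, adjusted p = 0.0832). The slope was 0.51 (SE 0.18) in males and 0.43 (SE 0.12) in females, whose medians were 130 CPM at 6 and 169 at 27 months. Slow fibre markers rose in the gastrocnemius in 6 of 6 cases in either sex. Acta2 in male diaphragm was at 1.94 to 29.0 CPM at 6 months (median 22.8) and 19.9 to 77.6 at 21 months (median 34.0). Its change of 1.02 (SE 0.29, adjusted p = 0.0215) became 0.72 (adjusted p = 0.0556) without the libraries that stood apart, and 0.94 (adjusted p = 0.0521) with library totals. These include the 6-month library with 1.94 CPM and r of -0.82 with GC content.

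The slope of a line over all 6 ages, given as the log2 change from 6 to 27 months, was called with an adjusted p below 0.05 and no fold limit, for 20 of 72 member slopes. The counts of 9 members were 1 in female diaphragm (5.86% of all genes), 5 in female gastrocnemius (36.3%), 5 in female soleus (29.4%) and 3 in female tibialis anterior (29.6%). In males they were 4 in the gastrocnemius (30.6%), 1 in the tibialis anterior (22.8%), 0 in the soleus (5.78%) and 1 in the diaphragm (8.91%). The count of 0 in male soleus is by edgeR and also by limma-voom and DESeq2, with 5 members at an unadjusted p below 0.05. The median slope of the 9 members was 0.05 in female gastrocnemius, where that of all genes was 0.02, and 0.25 in female soleus, where that of all genes was -0.03.

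**Figure D5:**
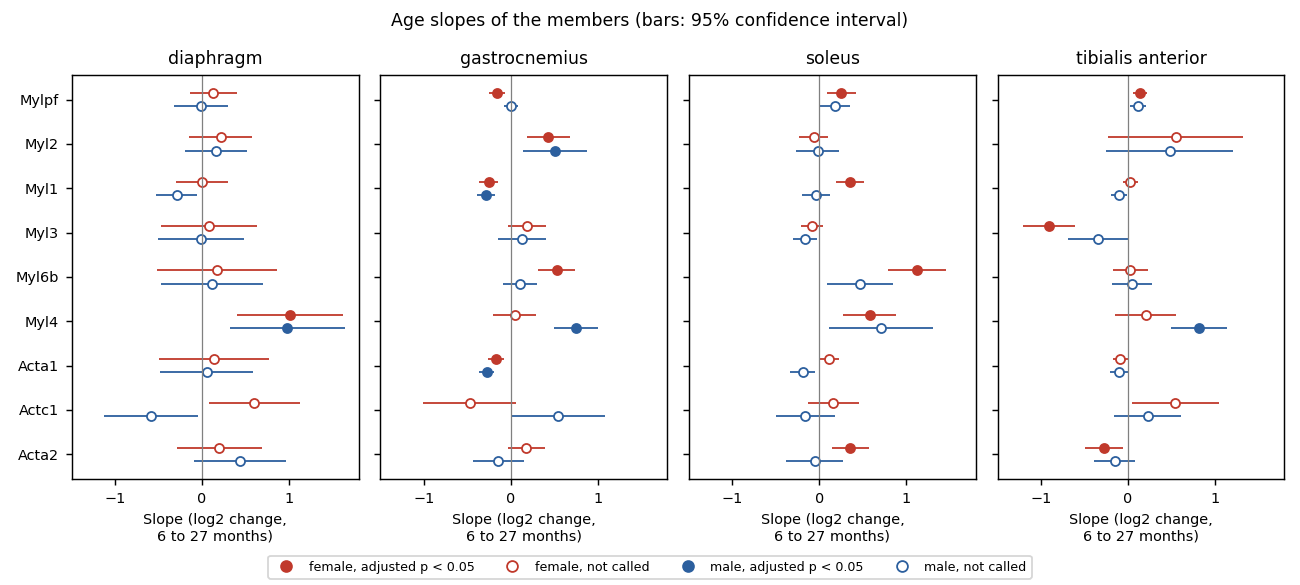
Slopes of the 9 members on age (log2 change from 6 to 27 months, bars 95% confidence intervals), by muscle and sex, filled where the adjusted p was below 0.05. Filled points lie below 0 for Myl1 and Acta1 in the gastrocnemius of both sexes and reach 1.12 for Myl6b in female soleus.

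In the gastrocnemius Myl1 and Acta1 fell slightly in both sexes and Mylpf in females. Myl1 had slopes of -0.25 in females (SE 0.05, edgeR adjusted p = 0.000204) and -0.28 in males (SE 0.05), with medians from 5906 to 5227 CPM and from 7310 to 5996 CPM between 6 and 27 months. Acta1 had slopes of -0.17 in females (SE 0.05) and -0.28 in males (SE 0.04), with medians from 15490 to 13800 and from 15670 to 13030 CPM. The ranges of 6 and 27 months overlapped for Acta1 in females (14730 to 16650 and 12350 to 16440) and in males (14150 to 16600 and 11510 to 14470). Mylpf had a slope of -0.16 (SE 0.05) in females and 0.00 in males (95% confidence interval -0.07 to 0.08). Of the fast fibre markers 6 of 8 fell in either sex, led by Pvalb, a calcium buffer of fast fibres (-0.42 in females, -0.37 in males), and Myh4, the heavy chain of type 2B fibres (-0.35 and -0.29).

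In female soleus 5 members rose and none fell. Beside Myl6b and Myl4 these were Myl1 (0.35, SE 0.08), Mylpf (0.25, SE 0.08) and Acta2 (0.35, SE 0.11), with medians of 867, 535 and 49.4 CPM at 6 months and 1000, 657 and 59.6 CPM at 27 months. The slopes of Myl2 (-0.07, 95% confidence interval -0.24 to 0.10) and Myl3 (-0.08, -0.21 to 0.04) were not called. In female tibialis anterior Mylpf rose (0.14, SE 0.04) and Acta2 fell (-0.27, SE 0.11, adjusted p = 0.0488). Of the 8 smooth muscle markers, 5 fell there and none rose, and in female soleus 3 rose and 2 fell. Small slopes depend on the scaling. With library totals the median slope of all genes moved from 0.02 to 0.15 in female gastrocnemius and from -0.03 to -0.24 in female soleus. The share of called genes that rose moved from 51.1% to 88.4% and from 49.2% to 7.5%. In the other sets it moved from 36.0% to 7.2% in female diaphragm, 54.1% to 75.6% in female tibialis anterior, and 47.1% to 80.6%, 60.4% to 72.9% and 57.0% to 84.7% in male gastrocnemius, soleus and tibialis anterior. On that scale the slopes of Mylpf (-0.03) and Acta1 (-0.04) in female gastrocnemius, of Myl1 (0.15), Mylpf (0.05) and Acta2 (0.15) in female soleus and of Acta2 in female tibialis anterior (-0.23) were not called, and Myl2 (-0.27) and Myl3 (-0.29) fell in female soleus.

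Female and male age slopes were then set against each other, with an interaction term within a muscle. It was called for 2 of 9 members in the gastrocnemius (6.51% of all genes), 2 in the soleus (11.0%), 0 in the tibialis anterior (5.12%) and 0 in the diaphragm (0.223%). In the gastrocnemius the slope of Myl4 was lower in females by -0.72 (SE 0.18, edgeR adjusted p = 0.0054), at 0.05 in females and 0.75 in males. The slope of Mylpf was lower by -0.18 (SE 0.06, adjusted p = 0.0439). In the soleus the slopes of Myl1 and Acta1 were higher in females by 0.37 (SE 0.11) and 0.29 (SE 0.09), and for Acta1 the slopes were 0.11 in females and -0.19 in males, neither called on its own. Myl6b in the soleus, called in females and not in males, had an interaction of 0.65 (95% confidence interval 0.15 to 1.15, adjusted p = 0.0822), and Myl3 in the tibialis anterior of -0.56 (-1.03 to -0.10, adjusted p = 0.139), so neither passed the test of the difference. With the replicate number as a block the Myl6b interaction was called (0.67, adjusted p = 0.0426). Within a muscle the same number at another age or sex is another mouse, so this block pairs no libraries. Under the other alternatives the adjusted p of this interaction was 0.0698 to 0.182. Both counts of 0 are by edgeR, with limma-voom and DESeq2 also at 0. At an unadjusted p below 0.05 there were 1 in the diaphragm and 3 in the tibialis anterior. With library totals in place of TMM the median interaction of all genes in the soleus moved from -0.06 to -0.29, and those of Myl1 (0.14) and Acta1 (0.06) were not called. On that scale Mylpf in the gastrocnemius (-0.13) was lost as well, while Myl4 there was called. The share of called genes with the higher slope in females moved from 50.3% to 68.1% in the gastrocnemius, 39.3% to 29.0% in the tibialis anterior, 50.4% to 3.1% in the soleus, and in the diaphragm from 32.4% to 8.4%.

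The slopes of the other muscles were set against the gastrocnemius, averaged over the sexes. Differences were called for 1 of 9 members in the tibialis anterior (1.14% of all genes), 3 in the soleus (9.24%) and 0 in the diaphragm (14.3%). In the soleus the slopes of Myl1, Myl6b and Mylpf were higher by 0.44 (SE 0.09, edgeR adjusted p = 4.06e-05), 0.51 (SE 0.16) and 0.31 (SE 0.09). In the tibialis anterior the slope of Myl3 was lower by -0.79 (SE 0.17, adjusted p = 0.00127). Without the libraries that stood apart 8 differences were called instead of 4. With library totals the differences of Myl6b and Mylpf in the soleus were 0.30 and 0.10 and not called, and that of Myl6b was also not called by limma-voom (0.46, adjusted p = 0.0942) or with the replicate number as a random block (0.47, adjusted p = 0.0807). With library totals the share of called genes with a higher slope than in the gastrocnemius moved from 36.0% to 17.9% in the tibialis anterior, 57.5% to 3.0% in the soleus, and in the diaphragm from 62.8% to 4.5%. The count of 0 for the diaphragm is by edgeR and also by limma-voom, with 2 members at an unadjusted p below 0.05. The 4 differences added without the libraries that stood apart were Myl1 (0.23) and Acta1 (0.35) in the diaphragm, and Myl2 (-0.50) and Acta1 (0.22) in the soleus.

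Other genes of the sarcomere were counted from a list chosen by name. Of 41 such genes, 15 rose and 12 fell along the line in female gastrocnemius, 16 and 10 in male gastrocnemius, 22 and 2 in female soleus and 5 and 0 in male soleus. In tibialis anterior 8 rose and 4 fell in females, 10 and 4 in males, and in the diaphragm 2 rose and 0 fell in females, 1 and 0 in males. Myh3, the embryonic heavy chain, rose in 7 of 8 combinations of muscle and sex, by 1.35 in female gastrocnemius, 1.52 in male gastrocnemius, 1.88 in female soleus and 1.42 in male soleus. Of 13 other light chain, actin and light chain kinase genes, 11 to 12 were tested, and 0 to 3 rose and 0 to 4 fell in a muscle and sex. Myl12a, a non-muscle regulatory chain, rose by 0.76 and 0.68 in female and male gastrocnemius and by 0.53 and 0.50 in female and male tibialis anterior. Mylk2, the kinase that phosphorylates the regulatory chain of skeletal muscle, fell by 0.26 in female and by 0.40 in male gastrocnemius.

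Markers of other cell types were counted in the same way. Of the 7 cardiac markers 4 to 6 were tested, and 3, 1, 2 and 1 rose in gastrocnemius, tibialis anterior, soleus and diaphragm of females and 2, 2, 0 and 1 in those of males, with none that fell. They were led by Sln, a small inhibitor of the calcium pump, at 3.76 and 4.15 in female and male gastrocnemius. Of the 11 embryonic or denervated fibre markers, 9, 8, 6 and 2 rose in females and 9, 10, 9 and 3 in males, in the same order of muscles. Of the lists of other cell types, the 6 pericyte markers had no member that rose outside female gastrocnemius, where 1 rose and 1 fell, and 2 fell in female diaphragm, 3 in male diaphragm and 3 in female tibialis anterior. None of the 6 liver markers rose in a muscle and sex other than female tibialis anterior. The part of these markers in the values of the members was not tested.

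Across libraries the members varied with different genes. Over deviations from the group mean in all libraries, which share scaling and depth, the genes most like Myl2 were Tnnt1 (Pearson's r = 0.72), Tnnc1 (0.70) and Myh7 (0.62), and those most like Mylpf were Tnnc2 (0.81), Tnni2 (0.79) and Myoz1 (0.78). Those most like Acta2 were Myl9 (0.82), Myh11 (0.82) and Tagln (0.81), and those most like Acta1 included Eef1a2 (0.97) and Ckm (0.97). For Myl3 they were Ndufv1 (0.82), Idh2 (0.81) and Tcap (0.81), for Myl1 Srl (0.76), Schip1 (0.76) and Neb (0.74), and for Myl6b Actr1b (0.62), Cacnb1 (0.59) and Myo18a (0.59). Myl4 and Actc1 had weaker likenesses, at most 0.36 with Chrng, a subunit of the fetal acetylcholine receptor, and 0.50 with Smyd1. These correlations describe the libraries and carry no test. They include the 6 diaphragm libraries with GC correlation below -0.5. Median Acta1 was 453 CPM in those 6 and 4721 in the other diaphragm libraries, and median Myl3 was 11.6 and 65.8. The part of those 6 libraries in the correlations was not tested.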

How the data were processed

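Total RNA of 4 muscles of C57BL/6J mice was sequenced by the authors (strand-specific, ribosomal RNA removed, paired 76-base reads), and gene counts were made by them with the ArrayStudio pipeline on mm10 with their own RefSeq-derived gene model. The deposited values are raw counts, 1 file for each library. Of 25091 entries, 633 that repeat a gene symbol were left out (the entry with the largest total was kept), which leaves 24458 symbols. Totals ran from 38583802 to 300089909, the next highest being 104836980. Intervals cover the spread between libraries, and the lowest values (Myl4 and Myl6b in some libraries) rest on few counts.

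Groups were taken from the titles. Labels do not tie muscles to mice, so p-values measure the spread between libraries. Counts were fitted with edgeR 4.0.16 (quasi-likelihood test, TMM scaling, its own filter on low counts, Benjamini-Hochberg adjustment) in R 4.3.3, per muscle and sex for age, per muscle for sex, and in one fit of all libraries for muscles. The fits were tested on simulated data. Alternatives were limma 3.58.1 (voom), DESeq2 1.42.0 (per-muscle fits), no filter, other scalings, ages, adjustments and fold limits, the replicate number, the run of sample numbers, leaving out the 16 libraries that stood apart and, chosen after seeing the data, a GC term and leaving out single libraries. A library stood apart if its correlation with its group lay more than 3 interquartile ranges under the first quartile of its muscle or its total was over 2 times the next. GC correlation was computed over 7154 genes with a mean log2 CPM above 3. Single libraries were left out in 94 refits of the age comparison, but not for every called member. Acta2 in male diaphragm was not refitted in this way. For the Myl2 change at 21 months in male gastrocnemius, 8 libraries of 6 months were left out in turn and none of 21 months.

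All 9 members are named. Other genes come from lists of sarcomere genes, of other light chains, actins and kinases, and of fast fibre, slow fibre, embryonic or denervated fibre, cardiac, smooth muscle, pericyte and liver markers: those with the largest called changes, and the genes most like a member. Members and lists were chosen with earlier results of these data known.

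The replicate numbers were checked for pairing as described with the alternatives. Positions come from GENCODE M21 on GRCm38 and promoters from RefSeq on GRCm38.p6.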

Additional observations from a re-analysis of the deposited data

Results flagged for a closer look

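Dixon's test at the 95% level was run on log2 of CPM plus 0.5, in 432 sets of 1 member, muscle, sex and age. The log scale spreads low values more than CPM does. In 55 sets 1 library lay far from the rest, the lowest library in 39 and the highest in 16. Chance gives about 1 in 20 such sets, but the sets are not independent. A library can recur across members, as replicate 0 of female diaphragm at 27 months did for Acta1, Acta2, Myl3 and Myl6b. The values printed below are TMM-scaled CPM.

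For Acta1 the lowest libraries were in female diaphragm at 6 months (replicate 2, 375 CPM), 18 months (replicate 4, 2850), 21 months (replicate 0, 532) and 27 months (replicate 0, 191). In male diaphragm they were at 6 months (replicate 2, 106), 12 months (replicate 2, 2870) and 27 months (replicate 6, 559). Male gastrocnemius at 18 months (replicate 3, 12800) and male soleus at 24 months (replicate 8, 5700) also held a low library, and male tibialis anterior at 6 months a high one (replicate 0, 14600).

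Acta2 was low in female diaphragm at 21 months (replicate 0, 10.2) and 27 months (replicate 0, 12.6), in male diaphragm at 6 months (replicate 2, 1.94) and in female tibialis anterior at 6 months (replicate 0, 44.0). It was high in female diaphragm at 18 months (replicate 5, 104), male diaphragm at 18 months (replicate 0, 52.9) and male soleus at 21 months (replicate 7, 86.2) and 27 months (replicate 6, 138). Actc1 was low in female diaphragm at 24 months (replicate 1, 15.9) and female gastrocnemius at 6 months (replicate 6, 99.9) and 24 months (replicate 2, 28.1), and high in female soleus at 6 months (replicate 6, 34.3) and male tibialis anterior at 6 months (replicate 7, 64.0).

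Myl1 was low in female diaphragm at 21 months (replicate 7, 497), male diaphragm at 12 months (replicate 2, 550) and female gastrocnemius at 24 months (replicate 3, 3690) and 27 months (replicate 0, 3630). It was also low in female tibialis anterior at 6 months (replicate 0, 4540), 12 months (replicate 7, 4320) and 18 months (replicate 1, 4650) and in male tibialis anterior at 6 months (replicate 7, 5570). Mylpf was low in female diaphragm at 21 months (replicate 7, 466) and 24 months (replicate 1, 484) and in male diaphragm at 6 months (replicate 2, 170), 12 months (replicate 2, 453) and 27 months (replicate 8, 292), and high in female tibialis anterior at 18 months (replicate 0, 3810).

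Myl2 was high in female diaphragm at 21 months (replicate 0, 713) and low in female gastrocnemius at 18 months (replicate 2, 100 CPM). Myl3 was low in that gastrocnemius library (39.3), in female diaphragm at 21 months (replicate 0, 14.6) and 27 months (replicate 0, 5.07) and in male diaphragm at 6 months (replicate 2, 4.01) and 27 months (replicate 6, 12.3). Myl4 was low in female gastrocnemius at 24 months (replicate 1, 1.46) and male soleus at 12 months (replicate 5, 0.0232). It was high in female gastrocnemius at 18 months (replicate 1, 3.19), male gastrocnemius at 21 months (replicate 6, 4.16), male soleus at 24 months (replicate 6, 4.59) and male tibialis anterior at 24 months (replicate 4, 4.86). Myl6b was low in female diaphragm at 24 months (replicate 3, 0.199) and 27 months (replicate 0, 0.115), and high in female diaphragm at 18 months (replicate 0, 2.48), female soleus at 12 months (replicate 7, 44.5) and male soleus at 12 months (replicate 5, 28.6). The male soleus library with the low Myl4 value is the one with the high Myl6b value.

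Age slopes that differed between groups by the test of the difference (log2 change from 6 to 27 months) were 8. Soleus minus gastrocnemius, they were 0.44 for Myl1, 0.51 for Myl6b and 0.31 for Mylpf, and tibialis anterior minus gastrocnemius -0.79 for Myl3. Female minus male, they were -0.72 for Myl4 and -0.18 for Mylpf in the gastrocnemius, and 0.37 for Myl1 and 0.29 for Acta1 in the soleus.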

How the results depend on the processing

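Of 84 called results of single members, 970 values under alternatives were computed, of which 901 kept their direction and call, 67 kept the direction and lost the call, and 2 changed sign. Library totals in place of TMM took away 20 calls and leaving out 6 months 18 (of 28 slope results); DESeq2 took away 0 of 41 and limma-voom 5 of 84. The 2 that changed sign were Actc1 in males alone, at 0.20 for diaphragm minus gastrocnemius, and Myl6b with library totals, at 0.059 for diaphragm minus tibialis anterior.

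Counts of called members moved as follows. Those changed at any older age (9) were 4 with Bonferroni adjustment and 5 with a fold limit of 2. Age slopes (20) were 13 without 6 months and 5 with Bonferroni. Sex differences (8) were 15 with a lower fold limit and 4 with a fold limit of 2. Slope differences between sexes (4) were 2 with library totals, 1 without 6 months and 0 with Bonferroni. Slope differences between muscles (4) were 8 without the libraries that stood apart and 1 with Bonferroni. The GC term gave 10, 22, 39, 8, 3 and 5 calls for age, slope, muscle, sex, sex by slope and muscle by slope.

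Same-numbered libraries correlated at medians of 0.267, 0.333 and 0.188 between limb muscles, 0.016 to 0.048 between these and the diaphragm, and -0.002 to 0.066 between ages. Between limb muscles 80 of 103, 96 of 102 and 80 of 101 same-numbered pairs exceeded 0.1, and libraries of other numbers had medians of -0.040, -0.046 and -0.032. The labels do not tie the muscles to mice and not every pair exceeded 0.1, so the numbers were not taken to pair the samples. Whether same-numbered limb libraries came from the same mouse was not settled, and the main fit of all libraries treated them as independent. With the replicate number as a block the counts, in the order just given, were 9, 19, 39, 8, 5 and 3. In fits of 1 muscle the block was a fixed term shared by ages and sexes, whose mice are different animals. There it pairs no libraries of the same mouse. The block took away the slopes of Myl4 in female and male diaphragm and added that of Acta1 in female soleus. It took away Myl4 in female soleus and Acta2 in male diaphragm (1.00, adjusted p = 0.0616) and added Myl6b in female gastrocnemius at 27 months (0.60) and Actc1 in female tibialis anterior at 18 months (-0.91, adjusted p = 0.0334). It also added the sex difference in the Myl6b slope of the soleus (0.67, adjusted p = 0.0426) and took away the difference of the Myl6b slope between soleus and gastrocnemius.

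Depth limits the lowest members: Myl4 and Myl6b in the diaphragm lay near 1 CPM or below.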
